A study of Homo sapiens with 12 samples.

Results

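The genes described here are 36 genes of ribosome biogenesis and ribosomal RNA processing, named in a list of nucleolar genes of the kind that the transcription factor MYC activates. Of these, 32 had at least 1 probe set that names only that gene, and all 32 were among the 15052 genes tested on the array. NOP56, DKC1, BOP1 and GNL3 appeared only on probe sets annotated to several genes, and no value is given for them. The 32 genes were covered by 68 probe sets, of which 62 were tested. On all 12 arrays, 29 of the 32 genes lay above the median of the array, and POLR1A, RRP9 and UTP15 lay above it on 10 or 11 arrays.

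Ribosomes are built mainly in the nucleolus. RNA polymerase I transcribes a long precursor RNA, small nucleolar ribonucleoproteins (snoRNPs) modify it, the small-subunit processome and the large-subunit assembly factors cut and fold it, and export factors carry the subunits to the cytoplasm. Myeloma cells secrete large amounts of immunoglobulin, and MYC, which is often active in them, is known to raise the expression of many of these genes.

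Expression was measured in 3 human multiple myeloma cell lines, MM.1S, MM.1R and INA-6, all of which stably carried green fluorescent protein (GFP). MM.1R is a glucocorticoid-resistant derivative of MM.1S, so these lines are related, and INA-6 is a separate line that depends on interleukin 6. For 24 h each line was kept either alone or with human bone marrow stromal cells of the line HS-5, and GFP-positive myeloma cells were then sorted away from the unlabelled stroma. The 6 groups (MM.1S, MM.1R and INA-6, each alone or with HS-5) had 2 arrays each, which the series text calls technical replicates, so p-values from fits of all 12 arrays measure only the spread between duplicates. Values are deposited intensities on a linear scale, and changes are differences of log2(intensity + 5), which understate the change of dim probe sets.

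Because these genes are counted among MYC-type targets, the promoters of the list were searched for the E-box CACGTG, the sequence that MYC and related factors bind. The motif reads the same on both strands and was searched in the window from 250 bases before to 50 bases after the transcript start (RefSeq, GRCh38.p14). It occurred in 13 of the 30 listed genes that had a promoter entry (43.33%), in 34 of 110 other genes of the pathway (30.91%) and in 2396 of 27305 genes overall (8.77%). Among genes with both an entry and a probe set the share was 10.87%. The promoters below belong to UTP20 and LYAR, which fell in all 3 lines, UTP18, which rose in MM.1S, and DDX21, which passed the test in no line. Each shows the 100 bases before the start, 5′ to 3′ on the gene's strand, with the E-box in capitals; for NOP2, which also fell in all 3 lines, 27 bases around the E-box are shown, since it lies 35 bases after the start.
UTP20, chr12:101280005-101280104, plus strand: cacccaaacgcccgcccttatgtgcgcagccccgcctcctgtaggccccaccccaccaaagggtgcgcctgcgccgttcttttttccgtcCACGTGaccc
LYAR, chr4:4290022-4290121, minus strand: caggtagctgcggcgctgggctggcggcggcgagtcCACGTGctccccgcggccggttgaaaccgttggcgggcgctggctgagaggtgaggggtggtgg
NOP2, chr12:6568242-6568268, minus strand: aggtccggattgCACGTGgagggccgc
UTP18, chr17:51260446-51260545, plus strand: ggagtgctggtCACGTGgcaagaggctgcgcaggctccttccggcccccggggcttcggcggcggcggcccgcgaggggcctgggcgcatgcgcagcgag
DDX21, chr10:68956547-68956646, plus strand: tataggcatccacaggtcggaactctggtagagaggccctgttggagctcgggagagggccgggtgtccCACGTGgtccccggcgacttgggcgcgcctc

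A match is a description of these letters and does not show that a factor is bound. The motif lay 10 bases before the start in UTP20, 64 before it in LYAR and 31 before it in DDX21. UTP18 held the motif at 2 places, 89 bases before and 4 bases after the start. All 3 genes that fell in every line and had a promoter entry (LYAR, NOP2 and UTP20; NOP58 had none) held an E-box, as did 4 of the 11 genes that rose in INA-6 and 3 of the 6 genes with an entry that passed in no line.

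**Figure D1:**
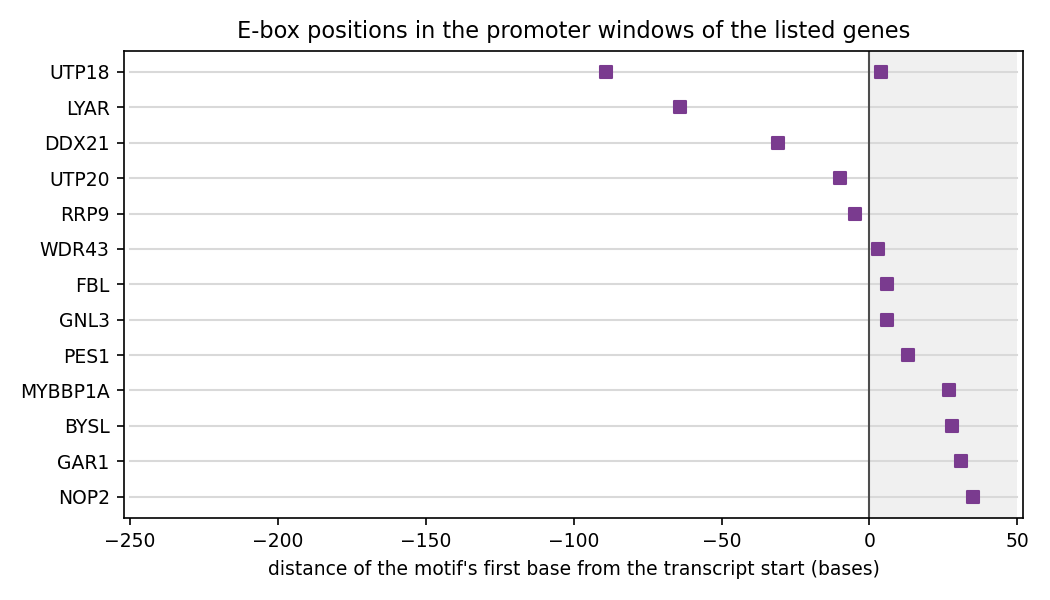
Position of each E-box in the promoter windows of the 13 listed genes that hold one. The x axis is the distance in bases of the motif's first base from the transcript start (vertical line), the grey area is the 50 bases after it, and each square is 1 motif; those of LYAR, DDX21 and UTP20 lie 64, 31 and 10 bases before the start.

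Measures of RNA quality and of stromal RNA moved with the groups. For ACTB the 3′ to 5′ ratio averaged 22.4 in MM.1S and 31.4 in MM.1R alone against 5.10 and 5.21 with HS-5, and moved the other way in INA-6, from 5.51 alone to 32.0 with HS-5. The GAPDH ratio fell from 5.99 to 1.89 and from 6.51 to 1.71 in the MM.1 lines and went from 2.88 to 4.96 in INA-6. Intensity of BioB, a spike-in control, was lower with HS-5 in every line. It averaged 1832 alone and 338 with HS-5 in MM.1S, 543 and 384 in MM.1R, and 3388 and 776 in INA-6. Summed intensity of 24 stromal markers was 1664 to 1912 in MM.1S, 2473 to 2500 in MM.1R and 4404 to 5653 in INA-6 alone, against 15146 to 15324, 26839 to 27618 and 13616 to 13696 with HS-5. In the common fit 12 of the 24 markers rose and 0 fell. Of 9 plasma cell markers, 0 lay below the array median on both arrays of any group, and they moved with coculture too: 7 rose and 0 fell in MM.1S, 5 rose and 0 fell in MM.1R, and 3 rose and 4 fell in INA-6. Their summed intensity was 11202 to 11545 alone and 22603 to 23006 with HS-5 in MM.1S, 16173 to 16621 and 22751 to 22820 in MM.1R, and 17657 to 17724 and 15552 to 15841 in INA-6. These values moved with coculture, and their part in the results below was not tested; fewer cells of a type and less RNA per cell cannot be told apart in sorted bulk samples.

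With HS-5, 1 gene of the list was lower across the lines, UTP20, and 4 genes fell within each line by the duplicate spread: UTP20, NOP2, NOP58 and LYAR. Across the lines, UTP20 was 5.59-fold lower with HS-5, and 0 of the 32 genes rose. UTP20 encodes a large scaffold protein of the small-subunit processome. NOP2 is the methyltransferase of large-subunit RNA, NOP58 is a core protein of box C/D snoRNPs, which guide methylation of ribosomal RNA, and LYAR is a nucleolar protein tied to cell growth.

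UTP20 read 1021 and 947 in MM.1S alone and 196 and 171 with HS-5. MM.1R gave 574 and 562 alone and 176 and 189 with HS-5. INA-6 gave 1194 and 1285 alone and 103 and 116 with HS-5. Every coculture array lay below every array alone, and INA-6, with the highest values alone, had the lowest with HS-5. The common change was −2.48 ± 0.46 (SE, n = 3 lines, limma, adjusted p = 0.0365), and the changes within lines were −2.39 in MM.1S, −1.61 in MM.1R and −3.45 in INA-6 (adjusted p = 3.49e-05, 0.000324 and 6.16e-06). The fall differed between the lines (limma F-test, adjusted p = 0.0015), and INA-6 fell by 1.45 more than the mean of the MM.1 lines.

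NOP2 stood at 1229 and 1234 in MM.1S alone and at 612 and 579 with HS-5. In MM.1R it stood at 1057 and 1179 alone and at 545 and 587 with HS-5, and in INA-6 at 592 and 490 alone and at 279 and 272 with HS-5. Groups of the same line did not overlap, and the test of a difference between lines did not pass (F-test, adjusted p = 0.946). The 3 changes were −1.04, −0.98 and −0.95 in MM.1S, MM.1R and INA-6 (each SE 0.16, limma, adjusted p = 0.00148, 0.0044 and 0.00141). NOP58 was measured at 3572 and 2947 in MM.1S alone and 2136 and 2118 with HS-5. In MM.1R it had 3461 and 3626 alone and 2127 and 2232 with HS-5, and in INA-6 it had 5361 and 5051 alone and 2828 and 2966 with HS-5. Its arrays also separated in every line, with changes of −0.61, −0.70 and −0.84 (limma, adjusted p = 0.0171, 0.0173 and 0.00232). LYAR read 791 and 743 in MM.1S alone against 510 and 473 with HS-5. MM.1R read 887 and 919 alone and 521 and 561 with HS-5, and INA-6 read 2291 and 2114 alone and 694 and 614 with HS-5. INA-6 alone had the highest LYAR level of the 6 groups, and the fall there, −1.75, exceeded those in MM.1S and MM.1R, −0.64 and −0.73 (limma F-test, adjusted p = 0.00768).

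**Figure D2:**
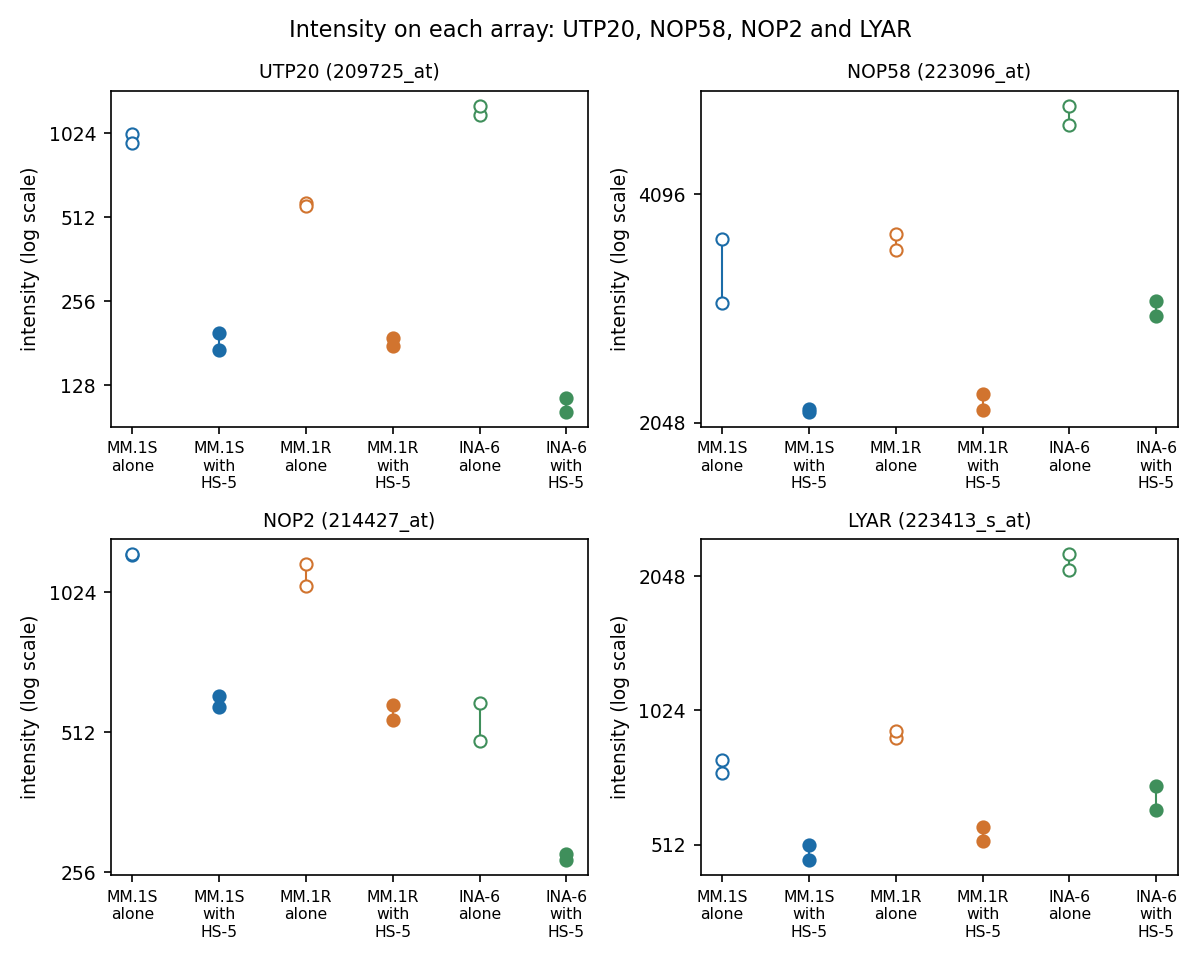
Intensity of UTP20, NOP58, NOP2 and LYAR on each of the 12 arrays, on a log axis. Open points are arrays of cells alone, filled points arrays of cells sorted after 24 h with HS-5, and a line joins the duplicates of a group; in each line both filled points lie below both open points for all 4 genes.

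Only UTP20 passed the common test, 1 of 32 genes, where 3.39% of all genes passed in that test, 3.28% higher and 0.106% lower. NOP2, LYAR and NOP58 had common changes of −0.99 ± 0.37, −1.04 ± 0.41 and −0.72 ± 0.37 (SE, n = 3 lines, limma, adjusted p = 0.177, 0.195 and 0.29). Within the lines 4 of 32 genes passed as lower in each of the 3, against 0.797% of all genes, and 0 passed as higher in each, against 7.29%. The same 4 of 32 had every coculture array below every array alone of the line in all 3 lines, against 4.48% of all genes. By the probe sets used, HEATR1 alone, 1 of 32, had them all above, against 23.6% of all genes. The median common change of the 32 genes was 0.13 and that of all genes 0.27, or −0.24 and 0.02 after quantile normalization. The UTP20 call was lost without a filter on low values (adjusted p = 0.0522), with all probe sets tested separately (0.0707) and without the library INA-6 alone replicate 1 (0.0673), while its change lay between −3.06 and −2.0 in all settings tried. The falls of UTP20, NOP2 and LYAR within each line passed under all 3 other scalings of the arrays; that of NOP58 did too, except in MM.1S with arrays centred on their median (adjusted p = 0.0579).

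Of the 23 genes that passed in at least 1 line, 17 passed in 1 line only, 1 in 2 lines and 5 in all 3. In MM.1S, 12 of 32 genes passed, 6 higher and 6 lower, against 32.3% of all genes (23.9% higher and 8.33% lower). In MM.1R, 5 of 32 passed, all lower, against 16.1% (13.3% higher and 2.76% lower). INA-6 had 17 of 32, 11 higher and 6 lower, against 52.2% (39.1% higher and 13.1% lower). Median changes of the 32 genes were −0.07, −0.32 and 0.37 in MM.1S, MM.1R and INA-6, beside 0.11, 0.09 and 0.47 for all genes. The rises depended on scaling: the split in MM.1S became 4 higher and 10 lower after quantile normalization and 3 higher and 12 lower with arrays centred on the median of the genes tested, and that in INA-6 became 6 and 6, or 2 and 15, with median changes of all genes of −0.06, −0.34, 0.17 and −0.37 in these 4 fits. With the spread taken from the 4 INA-6 arrays alone, 3 genes passed in INA-6, 1 higher and 2 lower. Leaving out MM.1S alone replicate 1, coculture replicate 1 or coculture replicate 2 left 7, 6 and 6 genes in MM.1S, leaving out any MM.1R array left 2 or 3 in MM.1R, and leaving out INA-6 coculture replicate 1 left 11 in INA-6.

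**Figure D3:**
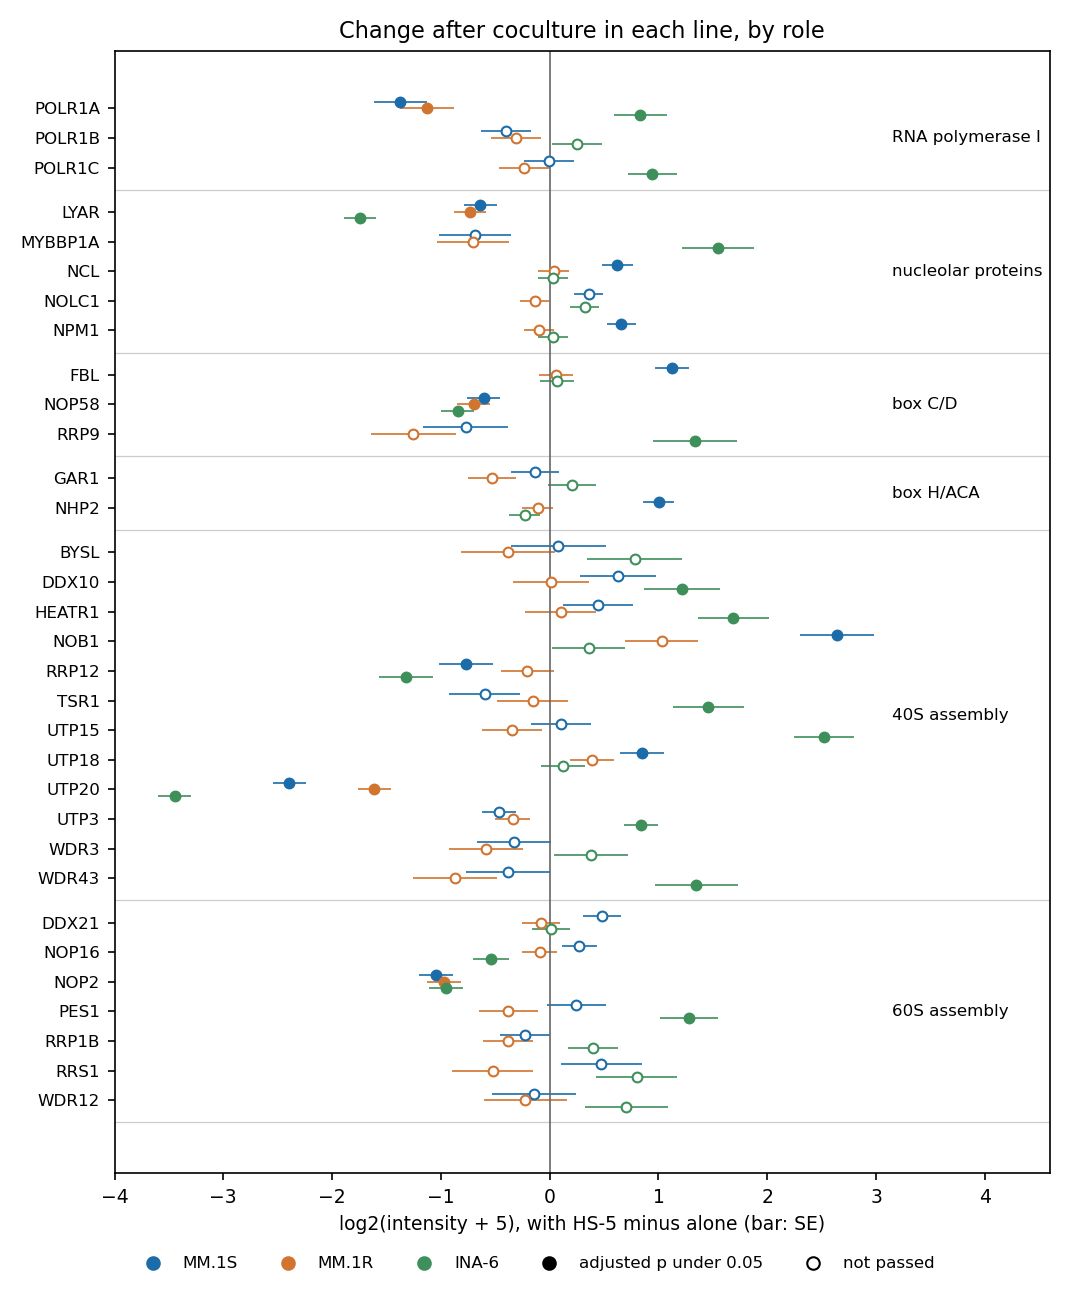
Change of each of the 32 genes with HS-5 in each line, grouped by role, as the difference of log2(intensity + 5) with its SE. Filled points passed at an adjusted p under 0.05; UTP20, NOP58, NOP2 and LYAR are filled below 0 in all 3 lines, while POLR1A is filled below 0 in MM.1S and MM.1R and above 0 in INA-6.

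RNA polymerase I subunits differed between the lines. POLR1A, its largest and catalytic subunit, read 207 and 245 in MM.1S alone and 75 and 93 with HS-5, and 197 and 157 in MM.1R alone and 92 and 66 with HS-5. In INA-6 it read 18 and 18 alone and 44 and 30 with HS-5. By the probe set used, levels fell in both MM.1 lines and stayed low in both INA-6 groups. On it, every INA-6 array lay below every array of the MM.1 lines. The changes were −1.37 and −1.13 in MM.1S and MM.1R and 0.83 in INA-6 (each SE 0.24, limma, adjusted p = 0.00343, 0.0168 and 0.0215), and the effect differed between lines (F-test, adjusted p = 0.00353). POLR1A was, by the probe sets used, the only listed gene to pass in opposite directions in different lines. Its rise in INA-6 was absent with arrays centred on the median of the genes tested (−0.0, adjusted p = 0.995). Other POLR1A probe sets gave −0.42 and 0.81 in MM.1S, −0.51 and −0.42 in MM.1R, and −0.76 and 1.96 in INA-6. The one that gave 1.96 read 94 and 91 in INA-6 with HS-5. POLR1C, a subunit shared with RNA polymerase III, rose by 0.94 in INA-6 (adjusted p = 0.00905), from 185 and 118 to 297 and 282, and changed by −0.01 and −0.24 in MM.1S and MM.1R without passing. POLR1B, the second-largest subunit, passed in no line by the probe set used. Of its other probe sets, 1 passed as lower in MM.1S, where they gave −1.52 to −0.50. In INA-6 1 passed as higher, where they gave −0.41 to 1.17.

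Among the nucleolar proteins, NPM1 (nucleophosmin, a chaperone of ribosomal particles) and NCL (nucleolin, which acts in transcription and early processing of the precursor) rose in MM.1S. NPM1 read 4168 and 3764 alone and 6314 and 6204 with HS-5 in MM.1S, while MM.1R read 5832 and 5930 alone and 5507 and 5454 with HS-5 and INA-6 read 5549 and 5473 alone and 5541 and 5722 with HS-5. On this probe set MM.1S alone was thus the low group, and with HS-5 it was the highest. On another, MM.1R alone averaged 1749 and MM.1S alone 1877. On the remaining one, INA-6 averaged 1687 alone and 1674 with HS-5, and MM.1S alone 1802. The change in MM.1S was 0.66 for NPM1 and 0.62 for NCL (each SE 0.14, limma, adjusted p = 0.00728 and 0.0106). After quantile normalization they were −0.35 and 0.02, and neither passed. NPM1 has near-identical copies in the genome, so its probe sets may also read those. MYBBP1A, a nucleolar protein that binds MYB, rose by 1.55 in INA-6 (adjusted p = 0.00513) and changed by −0.69 and −0.71 in MM.1S and MM.1R (adjusted p = 0.156 and 0.22). NOLC1, a snoRNP chaperone, passed in no line by the probe set used. Of its other probe sets, 1 passed as lower in MM.1R and in INA-6, by −1.50 and −1.35 (limma, adjusted p = 0.00129 and 0.000511).

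Of the snoRNP proteins, FBL, the methyltransferase of box C/D particles, and NHP2, a core protein of box H/ACA particles that guide pseudouridylation, rose in MM.1S. FBL read 1640 and 1552 alone and 3543 and 3424 with HS-5 in MM.1S, a change of 1.12 (SE 0.16, limma, adjusted p = 0.00103). NHP2 went from 1687 and 1556 to 3305 and 3189 in MM.1S, a change of 1.0 (SE 0.14, adjusted p = 0.00101), and both rises passed under all 3 other scalings. In MM.1R, NHP2 read 3294 and 3299 alone and 3140 and 2965 with HS-5, so that MM.1S with HS-5 reached the level that MM.1R had already alone. NHP2 was the only listed gene that passed the test of a difference in effect between MM.1R and MM.1S (−1.11 ± 0.20, SE, limma, adjusted p = 0.0375; 2.46% of all genes passed). RRP9, the protein specific to the U3 snoRNP, rose by 1.33 in INA-6 (adjusted p = 0.0209) and changed by −0.77 and −1.25 in MM.1S and MM.1R (adjusted p = 0.175 and 0.0668). GAR1, a further H/ACA protein, passed in no line.

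The small-subunit factors held the largest changes in both directions. In INA-6, 6 of the 12 were higher and 2 lower, against 39.1% and 13.1% of all genes. In MM.1S 2 were higher and 2 lower, against 23.9% and 8.33%, and in MM.1R 1 was lower, against 2.76%. UTP15, which links the processome to transcription of the precursor, read 26 and 15 in INA-6 alone and 135 and 139 with HS-5. The other lines read 102 and 164 (MM.1S) and 175 and 134 (MM.1R) alone, and 140 and 138 and 122 and 117 with HS-5. With HS-5, INA-6 thus reached the range of the MM.1 lines, and its change was 2.52 ± 0.28 (SE, limma, adjusted p = 0.000189), which passed under all 3 other scalings. HEATR1 and WDR43, which act with UTP15, rose by 1.69 and 1.35 in INA-6 (adjusted p = 0.00314 and 0.0188). The mean of the HEATR1 probe sets gave 0.04 there (limma, adjusted p = 0.899). TSR1, a late assembly factor, the helicase DDX10 and the processome protein UTP3 rose there by 1.46, 1.22 and 0.84 (adjusted p = 0.00674, 0.0193 and 0.00284). With arrays centred on the median of the genes tested, UTP15 and HEATR1 were the 2 of the 11 INA-6 rises that still passed. The changes of WDR43, TSR1, DDX10 and UTP3 were then 0.51, 0.62, 0.38 and 0.0 (adjusted p = 0.241, 0.112, 0.321 and 0.991), and WDR43 also did not pass after quantile normalization (adjusted p = 0.0783).

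NOB1, the nuclease that makes the final cut of the small-subunit RNA, had the largest rise in MM.1S. It read 30 and 51 alone and 292 and 247 with HS-5 there, 127 and 135 alone and 279 and 266 with HS-5 in MM.1R, and 272 and 135 alone and 238 and 256 with HS-5 in INA-6. The groups with HS-5 lay close together, and the lines were further apart alone. The change was 2.64 ± 0.34 in MM.1S (SE, limma, adjusted p = 0.000656), 1.03 in MM.1R (0.0806) and 0.36 in INA-6 (0.405). UTP18 rose by 0.85 in MM.1S (adjusted p = 0.0137), from 362 and 481 to 754 and 756. RRP12, which takes part in subunit export, fell by 0.77 in MM.1S and 1.32 in INA-6 (adjusted p = 0.045 and 0.00272) and read 1061 and 1274 alone and 911 and 1117 with HS-5 in MM.1R, where it did not pass. The other 2 probe sets of RRP12 gave 0.08 and 1.19 in INA-6, the mean of its probe sets gave −0.02 there (adjusted p = 0.959), and the call in MM.1S was lost in 14 of 24 other settings, with adjusted p between 0.00451 and 0.208. BYSL and WDR3 passed in no line.

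Of the 7 large-subunit factors, 1 rose and 2 fell in INA-6, against 39.1% and 13.1% of all genes. NOP2 alone passed in MM.1S and in MM.1R by the probe sets used, against 32.3% and 16.1% of all genes. PES1, the pescadillo protein that works in a complex with BOP1 and WDR12, rose by 1.28 in INA-6 (limma, adjusted p = 0.00471), from 206 and 109 to 393 and 352. NOP16 fell by 0.54 in INA-6 (adjusted p = 0.0242), from 520 and 411 to 313 and 319. Its other probe sets gave −0.66 to 0.99 there without passing, and 1 of them passed as higher in MM.1S (1.45, limma, adjusted p = 0.00167). DDX21, RRP1B, RRS1 and WDR12 passed in no line by the probe sets used, while 1 other probe set of WDR12 passed as lower in MM.1S. In all, 9 of the 32 genes passed in no line by the probe set used.

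The duplicates of INA-6 alone disagreed more than those of other groups. This held across all probe sets, where they correlated at 0.821, against 0.929 to 0.982 in the other groups. The counts below are for the list only, with no matching count over all genes. INA-6 alone replicate 2 read below replicate 1 for 29 of the 32 genes, by a median log2 difference of −0.56, and was at least 2-fold lower for 11 genes. The median ratio of the higher to the lower duplicate was 1.55 in this group and between 1.05 and 1.09 in the others. BYSL differed most, at 487 and 153. For all 11 genes that rose in INA-6, both coculture arrays also lay above the higher replicate alone. These genes were called on the same arrays, so this is no separate test of their rise. The share among all genes that rose there was not counted. Both INA-6 arrays alone also enter the spread shared by all groups: with either of them left out, 25 genes passed in MM.1S and 17 in MM.1R.

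**Figure D4:**
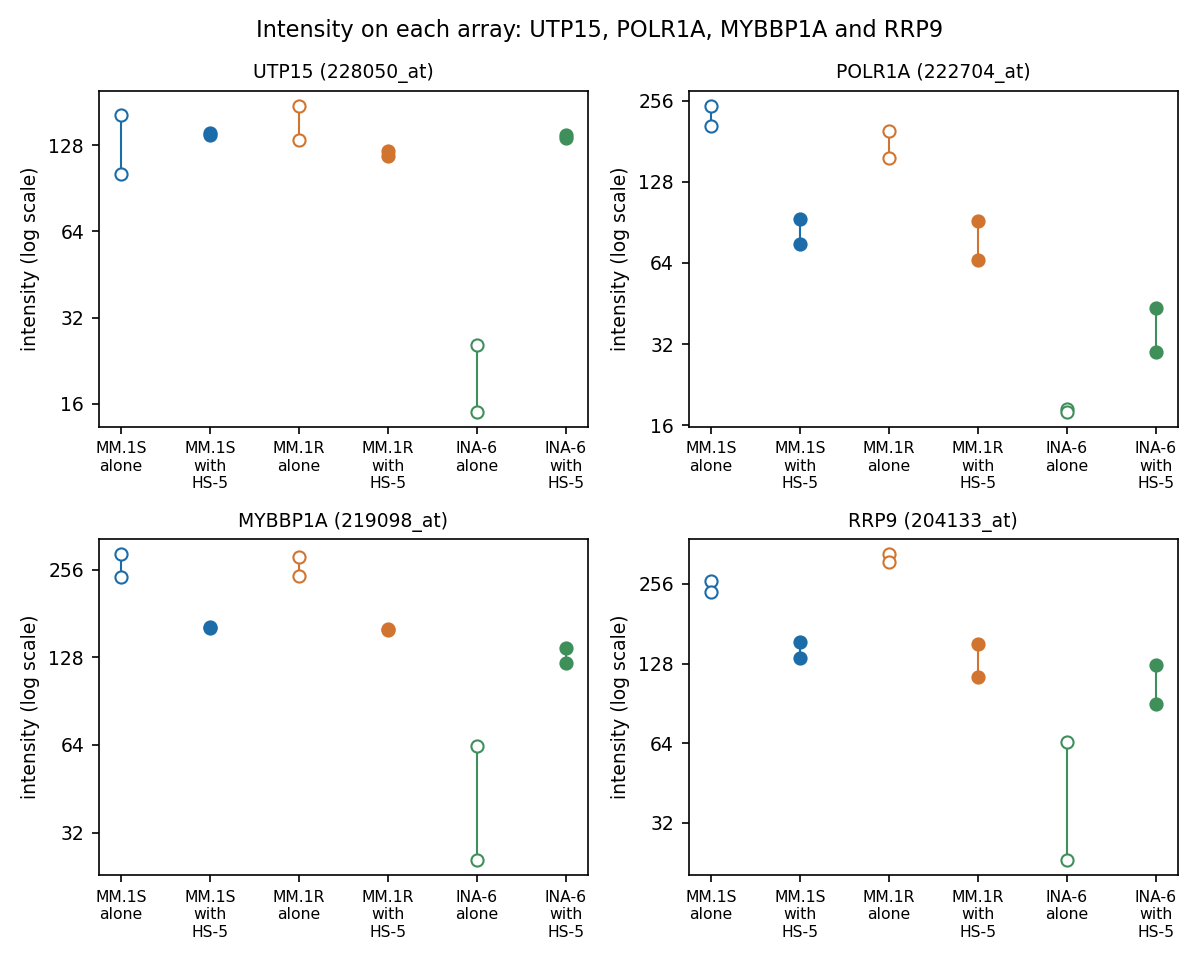
Intensity of UTP15, POLR1A, MYBBP1A and RRP9 on each of the 12 arrays, on a log axis; open points are cells alone, filled points cells with HS-5, and a line joins duplicates. By the probe set used for each gene, INA-6 alone is the lowest group for all 4 genes. Its arrays with HS-5 lie above those alone, while POLR1A, MYBBP1A and RRP9 lie lower with HS-5 than alone in MM.1S and MM.1R.

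The coculture effect differed between the lines for 15 of 32 genes (limma F-test), against 35.7% of all genes. The count was 29 and 23 without INA-6 alone replicate 1 and 2, and 8 without MM.1S or INA-6 coculture replicate 1. UTP15, RRP9 and MYBBP1A had the largest difference of INA-6 over the mean of the MM.1 lines, 2.64, 2.35 and 2.25 (adjusted p = 0.00214, 0.0153 and 0.00971). NOB1, UTP20 and LYAR had the largest in the other direction, −1.48, −1.45 and −1.06 (adjusted p = 0.0167, 0.0015 and 0.00768). By the probe sets not used, MYBBP1A gave −1.69, which also passed, and LYAR gave 0.44, which did not. Changes below 0 in both MM.1 lines and above 0 in INA-6 were seen for 12 of the 32 genes, whether or not they passed, and for 16.5% of all genes. These are also the lines in which the ACTB and GAPDH ratios moved in opposite directions; the part of those ratios in the difference was not tested.

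Cells kept alone already differed. INA-6 differed from the mean of the MM.1 lines for 23 of 32 genes, 7 higher and 16 lower, against 55.6% of all genes (21.4% higher and 34.1% lower). The medians were −0.75 for the list and −0.14 for all genes, and with arrays centred on the median of the genes tested the split was 13 higher and 11 lower. POLR1A, RRP9 and UTP15 were the lowest in INA-6, by −3.14, −2.70 and −2.56 (limma, adjusted p = 8.68e-06, 0.000251 and 5.08e-05). LYAR, NOB1 and RRP12 were the highest, by 1.40, 1.35 and 0.89 (adjusted p = 4.46e-05, 0.00487 and 0.00817). By other probe sets POLR1A gave −0.43 and 0.36, LYAR −0.23, and RRP12 −0.84 and −0.33. In this comparison HEATR1, NOLC1 and RRP12 each had probe sets that passed in opposite directions. By the probe sets used, all 3 genes lowest in INA-6 alone rose there with HS-5, and LYAR and RRP12 fell there. These changes share the arrays of INA-6 alone, so they are not independent.

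MM.1R alone exceeded MM.1S alone for 5 genes and lay below it for UTP20, 6 of 32 against 9.61% of all genes (7.93% higher and 1.67% lower). NOB1, NHP2 and FBL were higher by 1.63, 1.02 and 0.95 and NCL and NPM1 by 0.62 and 0.57, while UTP20 was lower, at −0.79 (limma, adjusted p = 0.022, 0.00558, 0.00974, 0.0297, 0.0385 and 0.0173). The 5 that were higher are 5 of the 6 genes that rose with HS-5 in MM.1S, a comparison that shares the arrays of MM.1S alone. Without 1 of the 4 arrays of these groups the count was 0 to 2, with either INA-6 array alone left out it was 14, and 3 higher and 2 lower passed after quantile normalization.

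Probe sets of the same gene often went apart. Of the 16 genes with several tested probe sets, all probe sets had the same sign of change for 8 in MM.1S, 9 in MM.1R and 2 in INA-6. In INA-6, HEATR1, MYBBP1A and POLR1C each had probe sets that passed in opposite directions. For MYBBP1A these gave 1.55 and −1.24, for POLR1C 0.94 and −0.57, and for HEATR1 1.69 and −1.46 with the other 3 between them. In MM.1S and MM.1R the MYBBP1A probe set not used gave 0.47 and 0.44 without passing. The lowest HEATR1 change was −1.50 in MM.1S and −1.53 in MM.1R, and 1 HEATR1 probe set passed as lower in each of these lines. The 3 changes of LYAR came from 1 of its 2 probe sets, and the other gave 0.16, −0.11 and 0.46 in MM.1S, MM.1R and INA-6 without passing. A second probe set of UTP18 fell by 2.51 in INA-6 (limma, adjusted p = 0.00347), where the one used changed by 0.12. All 3 probe sets of NPM1 passed as higher in MM.1S, and 3 of 4 of TSR1 in INA-6. In the other lines, 1 NPM1 probe set not used passed as higher in MM.1R and as lower in INA-6. It gave 0.65 and −0.73 there (limma, adjusted p = 0.0416 and 0.00884). UTP20, NOP2, NOP58, NHP2, NOB1 and UTP15 had 1 tested probe set each.

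**Figure D5:**
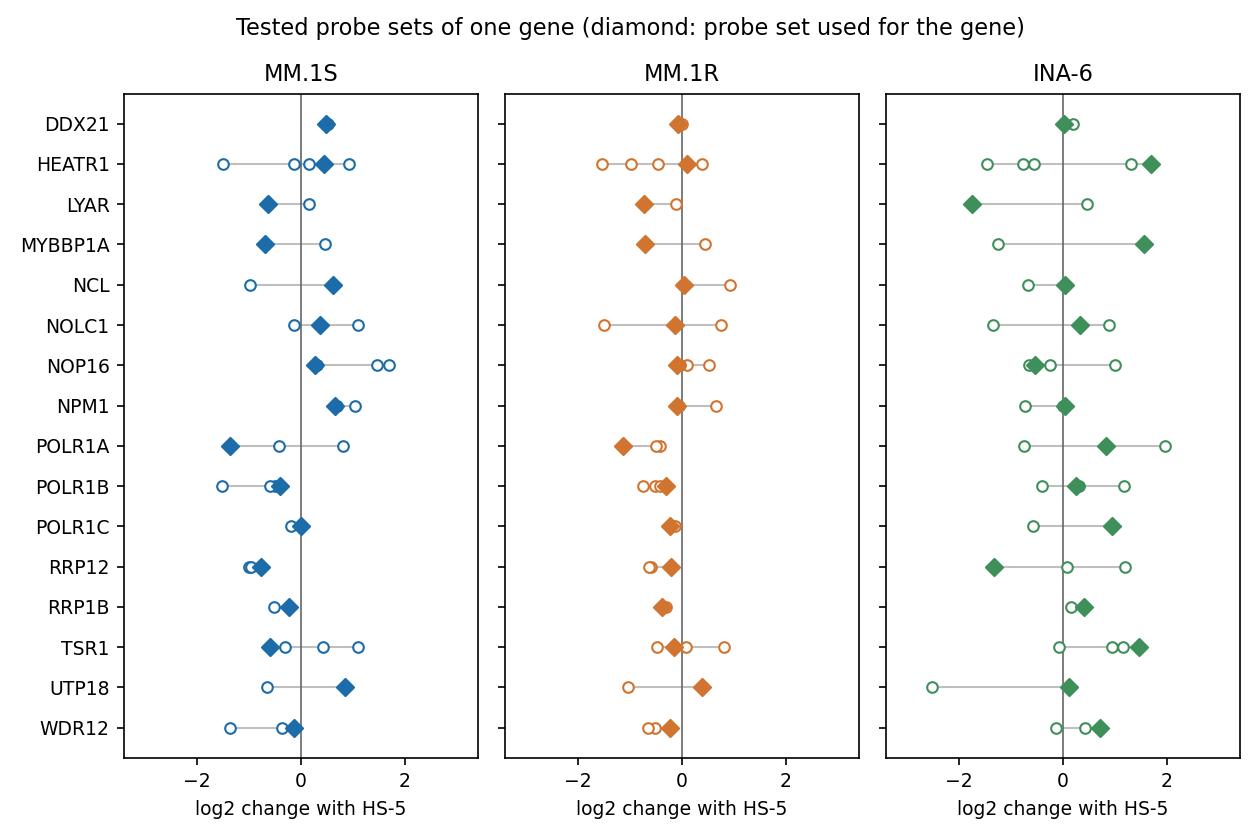
Change with HS-5 of every tested probe set of the 16 listed genes that had several, as the difference of log2(intensity + 5) in each line. The diamond is the probe set used for the gene (highest mean), open circles are the others and a grey line spans them; in INA-6 the span crosses 0 for 14 of the 16 genes.

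The rest of the pathway, 130 genes of RNA polymerase I, subunit assembly, snoRNPs, the exosome and their regulators outside the list, of which 124 were tested, gave 1 gene of 124 (0.81%) that passed the common test, against 3.39% of all genes. SENP3, a SUMO protease of large-subunit assembly, rose by 2.37 ± 0.49 (SE, n = 3 lines, limma, adjusted p = 0.049). Its arrays read 25 and 23 in MM.1S alone and 361 and 331 with HS-5, 136 and 86 in MM.1R alone and 343 and 307 with HS-5, and 30 and 43 in INA-6 alone and 151 and 163 with HS-5. NUFIP1, a snoRNP assembly factor, had a common change of −2.57 ± 0.63 that did not pass (adjusted p = 0.0743), and INA-6 showed the widest gap, 3244 and 3441 alone and 135 and 152 with HS-5. Within lines, 28 of the 124 rose and 23 fell in MM.1S, 8 rose and 18 fell in MM.1R, and 46 rose and 22 fell in INA-6. In all, 41.13%, 20.97% and 54.84% of them passed, against 32.3%, 16.1% and 52.2% of all genes. Their median changes were 0.03, −0.20 and 0.48, beside 0.11, 0.09 and 0.47 for all genes.

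MYC itself rose in the MM.1 lines. It read 1442 and 1390 in MM.1S alone and 3064 and 2830 with HS-5, 1362 and 1435 in MM.1R alone and 3128 and 2936 with HS-5, and 2165 and 1673 in INA-6 alone and 1666 and 1646 with HS-5. The groups separated fully in MM.1S and MM.1R and by little in INA-6. The changes were 1.05 and 1.11 in MM.1S and MM.1R (limma, adjusted p = 0.00191 and 0.0031) and −0.20 in INA-6 (adjusted p = 0.345). MXI1, an antagonist of MYC named here after its values were seen, rose by 2.48 ± 0.41 in the common fit (SE, n = 3 lines, limma, adjusted p = 0.0258). It was the only one to pass there among 11 tested genes listed as the MYC network, MYC included. Within lines, 4 of the 11 rose and 1 fell in MM.1S, 3 rose and 1 fell in MM.1R, and 7 rose and 1 fell in INA-6. The gene that fell was MGA each time (−0.97, −1.57 and −0.92). MAX rose in MM.1S and INA-6 (1.66 and 1.21). The part of these genes in the changes of the list was not tested. In the 2 MM.1 lines, 5 listed genes passed as lower in both (LYAR, NOP2, NOP58, POLR1A and UTP20), against 2.10% of all genes. As higher in both, 0 passed, against 11.4%. Taken by line, 6 listed genes rose in MM.1S (FBL, NCL, NHP2, NOB1, NPM1 and UTP18) and 0 in MM.1R.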

How the data were processed

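The table held 54675 probe sets of the Affymetrix U133 Plus 2.0 array as deposited intensity values, 1 of them left out for a missing value. Per the submitters' processing notes the authors used MAS5, whereas the series design text names dChip with averaged duplicates; which made these values is not settled, the table holds all 12 arrays separately, and no versions are given in the sources used here. Array medians were 19.78 to 24.09, and precision is limited by the small number of arrays.

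Log2(intensity + 5) was tested for 35664 probe sets above their array's median on at least 2 arrays, and each of 15052 genes took its probe set with the highest mean. Symbols came from GEO's platform annotation, with 41097 probe sets naming 1 gene, 1801 several and 11776 none. In limma 3.58.1 (R 4.3.3), the common effect was fitted to 6 averaged group values with line as a block (2 residual degrees of freedom). Line effects, their differences (F-test) and the lines alone were fitted to 12 arrays (6 residual degrees of freedom). Tests were two-sided, with Benjamini-Hochberg adjustment over all genes and a threshold of 0.05. The code was tested on simulated data. Genes of the list are named by role; full values go to those passing the common test, the largest changes and line differences, and genes whose probe sets passed in opposite directions, with pathway genes passing the common test and MYC beside them. NOP58, NOP2, LYAR, FBL, NHP2, UTP18 and NPM1 values and NUFIP1 were added after values were seen. The members, roles and other lists were chosen with earlier results of these data known.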

Additional observations from a re-analysis of the deposited data

Results flagged for a closer look

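The coculture effect differed between the lines for 15 genes by the F-test of limma; each value is the effect in INA-6 minus the mean effect in MM.1S and MM.1R, on the log2(intensity + 5) scale. INA-6 stood above the MM.1 lines for UTP15 (2.64), RRP9 (2.35), MYBBP1A (2.25), POLR1A (2.08), WDR43 (1.97), TSR1 (1.84), PES1 (1.35), UTP3 (1.24) and POLR1C (1.07). It stood below them for NOB1 (−1.48), UTP20 (−1.45), LYAR (−1.06), NHP2 (−0.67), FBL (−0.52) and NPM1 (−0.25). After quantile normalization the values of FBL and NPM1 were 0.15 and 0.42. By the probe set not used, MYBBP1A gave −1.69 and also passed. A difference between MM.1R and MM.1S was seen for NHP2 alone (−1.11). Groups of 2 arrays are too small for a check of single outlying arrays.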

How the results depend on the processing

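Of 79 calls for single genes, 27 held in every setting tried, 51 were lost in at least 1 and 12 changed sign in at least 1. Settings with a change of sign were not counted as lost. NOP58 in INA-6 alone changed sign in 1 setting and is therefore not among the 51. The common count of 1 became 0 with no filter on low values or with probe sets tested separately, 6 with the duplicates unaveraged, 6 with a replicate block and 5 without INA-6, and 0 to 1 with 1 array left out. MM.1S gave 12, but 19 with its own spread, 23 without INA-6 arrays (added after seeing the data) and 6 to 25 with 1 array left out. MM.1R gave 5, but 11 after quantile normalization, 11 with its own spread, 16 without INA-6 arrays, 18 with arrays centred on the median of the genes tested (added after seeing the data) and 2 to 17 with 1 array left out. INA-6 gave 17, but 3 with its own spread and 11 to 25 with 1 array left out (11 without INA-6 coculture replicate 1). The difference between lines gave 15, and 8 to 29 with 1 array left out; 29 and 23 without INA-6 alone replicate 1 and 2, 8 without MM.1S or INA-6 coculture replicate 1. INA-6 against the MM.1 lines alone gave 23 (19 to 28), and MM.1R against MM.1S alone gave 6 (0 to 14), 3 with arrays centred on their median and 12 without INA-6 arrays. A lone array left in a group was assumed to vary like the others. The replicate block changed no other count by more than 1.5 times (MM.1R minus MM.1S alone 4). Same-numbered arrays alone and with HS-5 correlated in their deviations at 0.408 in MM.1S, 0.581 in MM.1R and 0.08 in INA-6; since 6 of all 15 group pairs, not every pair, were above 0.1 (−0.529 to 0.581), the numbers were not taken to pair the arrays.

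Signs turned with the mean of a gene's probe sets for HEATR1 (common, −0.16), NCL in MM.1S (−0.18), RRP12 in INA-6 alone (−0.10) and NCL in MM.1R against MM.1S alone (−0.24). They turned after quantile normalization for NPM1 in MM.1S (−0.35), NPM1 (0.42) and FBL (0.15) in the line difference, NCL (−0.15), FBL (−0.12) and NOP58 (−0.05) in INA-6 alone, and NPM1 in MM.1R against MM.1S alone (−0.18). With arrays centred on the median of the genes tested they turned for POLR1A in INA-6 (−0.0) and UTP3 in INA-6 alone (0.06). For results other than those where fewer genes or arrays entered, the cause was not tested.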
